A study of Mus musculus with 4 samples.

Results

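The Notch pathway genes described here are 10 genes taken by symbol from the gene count table: the receptors Notch1, Notch2 and Notch3, the ligands Dll1, Dll3, Dll4 and Jag1, and the effectors Hes1, Hes5 and Hey1. They stand among 24062 genes in the table, of which 15762 were tested, and all 10 were among those tested. The table came from RNA-seq of E13.5 mouse retinas on a C57BL/6 129 mixed background, with 2 libraries of wildtype retinas and 2 of retinas in which Nrf1 was conditionally deleted, labelled Nrf1-CKO (Nrf1 f/f;Six3-Cre). Nrf1 is a transcription activator of genes for mitochondrial biogenesis. In the mutant, Cre recombinase under a Six3 promoter removes a floxed exon in retinal progenitors, beginning in the central retina, so that cells outside the Six3-Cre lineage keep the gene. Each library pooled the retinas of several littermates of both sexes. The comparison asks how the transcripts of the pathway differ between retinas with and without Nrf1.

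Notch signalling passes between touching cells. A ligand of the Delta-like or Jagged family on one cell binds a Notch receptor on its neighbour, the receptor is cleaved by an ADAM protease and then by γ-secretase, and the freed intracellular domain enters the nucleus. There it joins Rbpj and a Mastermind protein and switches on Hes and Hey genes, which encode repressors of the proneural genes. In the embryonic retina the pathway is known for holding progenitors in an undifferentiated, dividing state, while newly forming neurons present the ligands.

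The 4 libraries held between 74577660 and 85933945 reads assigned to genes, and every member had at least 661 reads in each library. Nrf1 itself was at 103 and 105 counts per 1000000 assigned reads (CPM) in the wildtype libraries and 103 and 100 CPM in the mutant ones. A whole-gene count does not read the deleted exon alone, so it does not check the labels. Markers of retinal progenitors were high in every library, with a summed level of 7945 and 8515 CPM in wildtype and 6200 and 6772 CPM in mutant libraries, and 8 of the 10 were not called. Markers of other tissues were not evenly spread. The summed level of 8 lens genes was 117 and 318 CPM in wildtype and 6284 and 2641 CPM in mutant libraries, and all 8 were called higher. A call here means a fold change of at least 1.4 with an adjusted p of at most 0.2 in edgeR's quasi-likelihood test. In bulk tissue, fewer cells of a type and less RNA per cell cannot be told apart. The study's methods state that the RNA-seq was done in duplicate and that statistical power was still lacking. No label says that the 2 libraries of a group came from separate collections, so the p-values measure only the spread between these libraries.

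Of the 10 members, 2 were called lower in the mutant retinas (Dll3 and Hes5), 2 were called higher (Notch3 and Jag1), and 6 were not called. Over all genes tested, 8.04% were called lower and 12.8% higher. The members' median log2 fold change was -0.14, against 0.00073 over all genes tested. The libraries of the 2 groups did not overlap for 9 of the 10 members, which was the case for 62.5% of all genes tested. The members thus did not move one way, and each of the 3 roles held a call. The 1 called receptor, Notch3, was higher, and the 1 called effector, Hes5, was lower. Among the receptors Notch1 had a log2 fold change below 0, as had all 3 effectors.

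**Figure D1:**
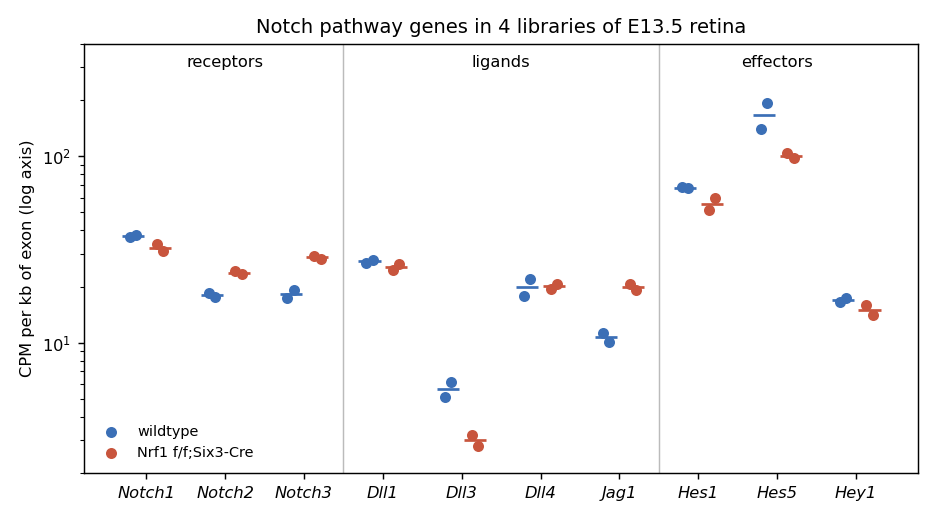
Level of each member in CPM per kilobase of exon, on a log axis, with 1 point per library and a bar at the mean of 2 libraries, for wildtype (blue) and Nrf1 f/f;Six3-Cre (red) retinas. Hes5 was the most abundant member and Dll3 the least abundant in both groups, and the libraries of the groups overlap for Dll4 only.

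Notch1, the receptor known as the main one of retinal progenitors, had 522 and 538 CPM in the wildtype libraries and 478 and 439 CPM in the mutant ones. The mutant libraries were both lower, with no overlap. The log2 fold change was -0.21 ± 0.082 (standard error), with an adjusted p of 0.106 by edgeR's quasi-likelihood test, and its fold was below the minimum for a call. The 95% interval of the log2 fold change ran from -0.40 to -0.022.

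Notch2 was at 200 and 189 CPM in wildtype libraries and at 260 and 253 CPM in mutant libraries. Both mutant libraries were higher. Its log2 fold change of 0.40 ± 0.077 had an adjusted p of 0.00634 in the same test, and the 1.32-fold change stayed under the fold minimum, so it was not called.

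Notch3, a receptor of progenitors that is also strongly expressed by the mural cells of blood vessels, gave the largest difference among the 3 member receptors. It had 141 and 155 CPM in wildtype libraries and 237 and 228 CPM in mutant libraries. Every mutant library lay above every wildtype library. Its log2 fold change was 0.65 ± 0.081, with an adjusted p of 0.000679 in edgeR's quasi-likelihood test, and it was called higher with any 1 of the 4 libraries left out, at a log2 fold change between 0.59 and 0.72.

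The receptor pool therefore had another make-up in the mutant retinas. Per kilobase of exon, Notch1 made up 49.1% and 49.4% of the summed level of the 4 Notch receptors in wildtype libraries and 37.2% and 35.7% in mutant libraries. The share of Notch3 was 23.4% and 25.0% in wildtype and 32.3% and 32.7% in mutant libraries. The level of Notch1 per kilobase was 2.10 and 1.98 times that of Notch3 in wildtype libraries and 1.15 and 1.09 times in mutant libraries. Notch4, a receptor best known from endothelium and not among the members, was the smallest part of the pool in every library. It had 15.6 and 16.6 CPM in wildtype and 28.1 and 30.7 CPM in mutant libraries. It was called higher, with a log2 fold change of 0.87 ± 0.10 and an adjusted p of 0.000529 in the same test.

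**Figure D2:**
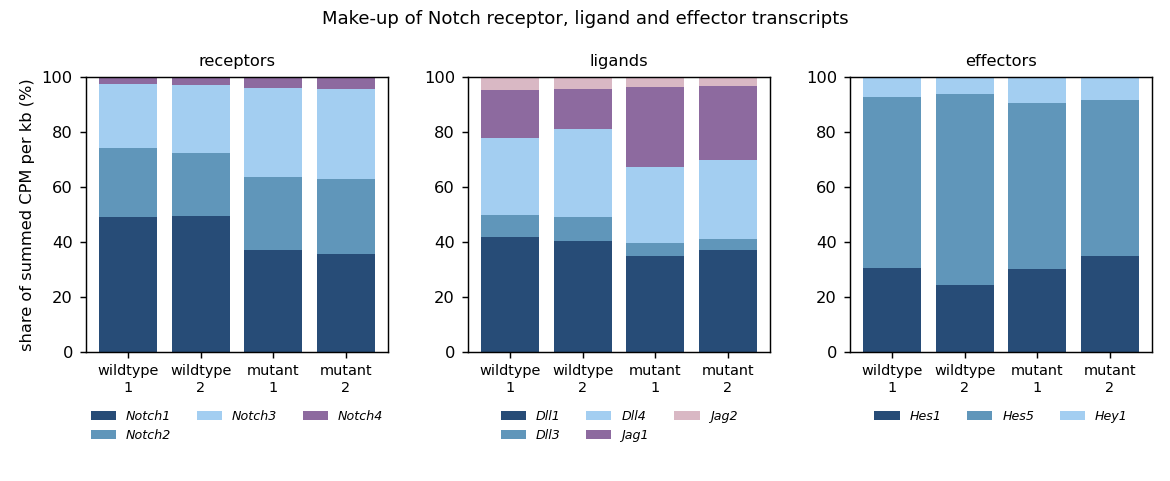
Share of each gene in the summed CPM per kilobase of the 4 Notch receptors, the 5 ligands (the 4 members and Jag2) and the 3 effectors, in percent, with 1 stacked bar per library (mutant is Nrf1 f/f;Six3-Cre). The Notch1 share is 49.1% and 49.4% in wildtype and 37.2% and 35.7% in mutant libraries, and the Jag1 share is 17.7% and 14.6% against 29.4% and 26.8%.

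Dll1, a ligand of newly forming neurons, had 113 and 117 CPM in wildtype libraries and 104 and 111 CPM in mutant libraries. The groups lay close together without overlap. The log2 fold change of -0.10 ± 0.078 had an adjusted p of 0.429 in edgeR's quasi-likelihood test, and its 95% interval ran from -0.27 to 0.080.

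Dll4, a ligand that retinal precursors and the tips of growing vessels both use, had 68.3 and 84.6 CPM in wildtype libraries and 74.8 and 79.6 CPM in mutant libraries. Both mutant values lay between the wildtype values. Its log2 fold change was 0.01 ± 0.11 with an adjusted p of 0.944 in the same test, and the 95% interval from -0.23 to 0.25 leaves room for a change either way of less than the fold minimum.

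Dll3, a divergent ligand that does not activate receptors on neighbouring cells and is found in cells entering neurogenesis, was called lower. It had 14.6 and 17.5 CPM in wildtype libraries and 9.11 and 7.99 CPM in mutant libraries. The mutant mean was 53.3% of the wildtype mean, and no library of a group reached the other group. Its log2 fold change was -0.91 ± 0.14, with an adjusted p of 0.00214 in edgeR's quasi-likelihood test. The call held with any 1 library left out, at a log2 fold change between -1.03 and -0.77. On the log2 values that the authors normalised, the log2 fold change was -0.61.

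Jag1, a Jagged ligand known from the peripheral retina, the lens and vessels, showed the smallest adjusted p of the members. It had 65.8 and 58.7 CPM in wildtype libraries and 121 and 111 CPM in mutant libraries. Both mutant libraries lay above both wildtype ones. The log2 fold change was 0.90 ± 0.088, or 1.86-fold, with an adjusted p of 0.000252 in the same test, and it lay between 0.82 and 0.98 with any 1 library left out. Dll1 was 2.37 and 2.75 times as abundant as Jag1 per kilobase in wildtype libraries and 1.19 and 1.38 times in mutant libraries. Jag2, the other Jagged ligand, was at 20.6 CPM (mean of 2) in wildtype and 16.9 CPM in mutant retinas, with a log2 fold change of -0.29 ± 0.10 and an adjusted p of 0.0773, and was not called.

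Hes1, a repressor present in progenitors, had 139 and 137 CPM in wildtype libraries and 104 and 122 CPM in mutant libraries. The mutant libraries were lower and differed more from each other than the wildtype libraries did. The log2 fold change of -0.29 ± 0.090 had an adjusted p of 0.0525 in edgeR's quasi-likelihood test, and the fold was too small for a call.

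Hey1, a related repressor of the Hey family, had 54.1 and 56.6 CPM in wildtype libraries and 51.9 and 45.7 CPM in mutant libraries. The groups did not overlap. Its log2 fold change was -0.18 ± 0.087 with an adjusted p of 0.175 in the same test, again below the fold minimum, and its 95% interval ran from -0.38 to 0.014.

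Hes5, an effector closely tied to Notch activity in neural progenitors, was called lower. It had 190 and 262 CPM in wildtype libraries and 141 and 133 CPM in mutant libraries. The groups did not overlap, and the 2 wildtype libraries lay further apart than either mutant library did from the lower of them. The log2 fold change was -0.72 ± 0.14, with an adjusted p of 0.00527 in edgeR's quasi-likelihood test. Wildtype replicate 2 set its size: without that library the log2 fold change was -0.47 with an adjusted p of 0.0319, which is under the fold minimum, and without wildtype replicate 1 it was -0.93. That library was also the higher of the wildtype pair for Notch1, Notch3, Dll1, Dll3, Dll4 and Hey1, and the lower for Notch2, Jag1 and Hes1.

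The windows before the start sites were searched for the core letters bound by Rbpj (TGGGAA, or TTCCCA on the other strand) and by Nrf1 (TGCGCATGC, or GCATGCGCA). The RefSeq promoter table held 9 start sites for 8 of the members, Hes1 and Hey1 being the others. In the 250 bases before the start, the Rbpj letters occurred in 1 of the 9, that of Hes5, and in 21.6% of all 32851 promoters of that length. The Nrf1 letters occurred in 0 of the 9 and in 1.28% of all promoters. Hes5 held 2 matches, which begin 226 bases (minus strand) and 82 bases (plus strand) before its start. Its window (GRCm38, chr4:154960673-154960922, plus strand) is printed because it carries both matches, in capitals, and that of Notch3 (chr17:32166891-32167140, minus strand) because it is a called member with neither motif.
Hes5: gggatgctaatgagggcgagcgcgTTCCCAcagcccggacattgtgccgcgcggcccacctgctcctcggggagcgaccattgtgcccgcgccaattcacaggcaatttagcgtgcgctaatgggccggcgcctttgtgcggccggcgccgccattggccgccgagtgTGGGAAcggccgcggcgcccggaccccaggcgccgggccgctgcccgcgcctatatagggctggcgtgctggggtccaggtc
Notch3: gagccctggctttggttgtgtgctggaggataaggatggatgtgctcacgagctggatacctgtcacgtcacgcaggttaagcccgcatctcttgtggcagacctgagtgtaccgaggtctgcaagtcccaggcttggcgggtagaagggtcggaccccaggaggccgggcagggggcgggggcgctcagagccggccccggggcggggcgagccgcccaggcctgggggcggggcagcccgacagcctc
A match describes letters in a window and is not evidence of binding, and the lack of one says only that these letters are not in this window.

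**Figure D3:**
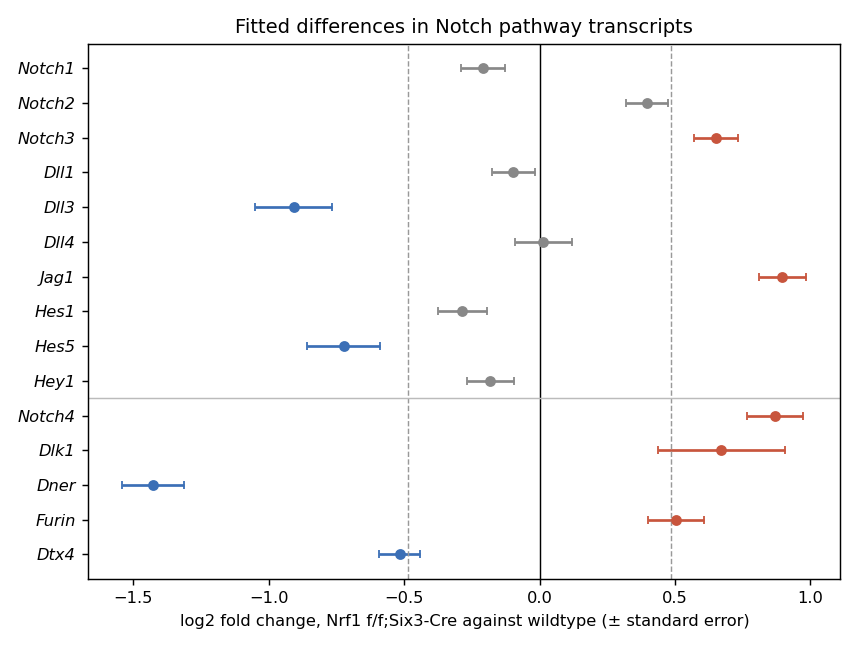
Log2 fold change of Nrf1 f/f;Six3-Cre against wildtype retinas, with its standard error, for the 10 members (above the line) and the 5 called genes of the wider Notch pathway list (below it); blue marks genes called lower, red those called higher, grey those not called, and dashed lines the 1.4-fold limits. The estimates run from -1.43 for Dner to 0.90 for Jag1.

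Ordered by level per kilobase of exon, Hes5 (166 ± 37.6 CPM per kb, SD, n = 2), Hes1 (67.6 ± 0.674) and Notch1 (37.2 ± 0.819) led the members in wildtype retinas, and Jag1 (10.7 ± 0.860) and Dll3 (5.63 ± 0.727) came last. Dll4, Notch3 and Notch2 stood in the middle, Dll4 at 19.8 and Notch3 at 18.3 CPM per kb, with overlapping libraries between neighbours. In the mutant retinas Hes5 (100.4 ± 4.30), Hes1 (55.5 ± 6.08) and Notch1 (32.2 ± 1.97) again led. Notch3, at 28.7 ± 0.721 CPM per kb, stood next, above Dll1 at 25.5 ± 1.24. Jag1 had reached the level of Dll4 (19.9 CPM per kb for Jag1, with overlapping libraries).

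The rest of the pathway was followed through a list of 54 genes in 8 roles, of which 52 were tested. Of these, 2 were called lower and 3 higher, and 47 were not called, with a median log2 fold change of -0.026. Over all genes tested, 8.04% were called lower and 12.8% higher. A further 17 had an adjusted p within the limit but a fold under the minimum, as did 2995 of the 15762 genes tested. Hes3 and Hes7, with at most 8 reads in any library, were not tested.

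The 2 genes called lower were Dner and Dtx4. Dner, a Notch-binding membrane protein of neurons, had 27.3 and 29.0 CPM in wildtype libraries and 11.1 and 9.80 CPM in mutant libraries, a log2 fold change of -1.43 ± 0.11 with an adjusted p of 0.000108 in edgeR's quasi-likelihood test. Beside it, all 8 markers of retinal ganglion cells, the first neurons of the retina, were called lower, with a summed level of 1528 and 1746 CPM in wildtype and 575 and 439 CPM in mutant libraries. Their part in the Dner value was not tested. Dtx4, a member of the Deltex family of ubiquitin ligases that act on Notch receptors, had 531 and 543 CPM in wildtype and 379 and 372 CPM in mutant libraries, with a log2 fold change of -0.52 ± 0.077 and an adjusted p of 0.00164 in the same test. It lay close to the fold minimum, and with upper-quartile scaling, at -0.48, it was not called.

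Besides Notch4, Dlk1 and Furin were called higher. Dlk1, a Delta-like protein without the receptor-activating domain, had 3.53 and 4.14 CPM in wildtype and 7.38 and 4.82 CPM in mutant libraries, a log2 fold change of 0.67 ± 0.23 with an adjusted p of 0.0724 by edgeR's quasi-likelihood test. Without wildtype replicate 1 or mutant replicate 1 its log2 fold change was 0.56 or 0.33, and it was not called. The protease Furin, which cuts Notch receptors on their way to the surface, had 53.1 and 61.6 CPM in wildtype and 75.2 and 87.2 CPM in mutant libraries, a log2 fold change of 0.50 ± 0.10 with an adjusted p of 0.00818 in the same test. It fell under the fold minimum without wildtype replicate 1 (0.40) and without mutant replicate 2 (0.39). The other 9 genes of receptor cleavage, including Adam10 and the γ-secretase subunits, were not called.

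Among genes of the nuclear complex, Rbpj was at 118 CPM (mean of 2) in wildtype and 106 CPM in mutant retinas, with a log2 fold change of -0.15 ± 0.081 and an adjusted p of 0.216 in edgeR's quasi-likelihood test. Maml3, a Mastermind coactivator, had a log2 fold change of -0.39 ± 0.075 and an adjusted p of 0.00619 in that test, under the fold minimum. Of the fringe genes, whose enzymes add sugars that tune which ligand a receptor answers, Lfng, Mfng and Rfng had log2 fold changes of -0.41, -0.44 and -0.27 and none was called. Nrarp, a target and inhibitor of the pathway, was at 110 CPM in wildtype and 87.1 CPM in mutant retinas, a log2 fold change of -0.34 ± 0.093 with an adjusted p of 0.0289 in the same test. Hes6, which is found in differentiating precursors rather than as a Notch target, had a log2 fold change of -0.29 ± 0.096, and Heyl one of -0.16 ± 0.12, and neither was called.

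**Figure D4:**
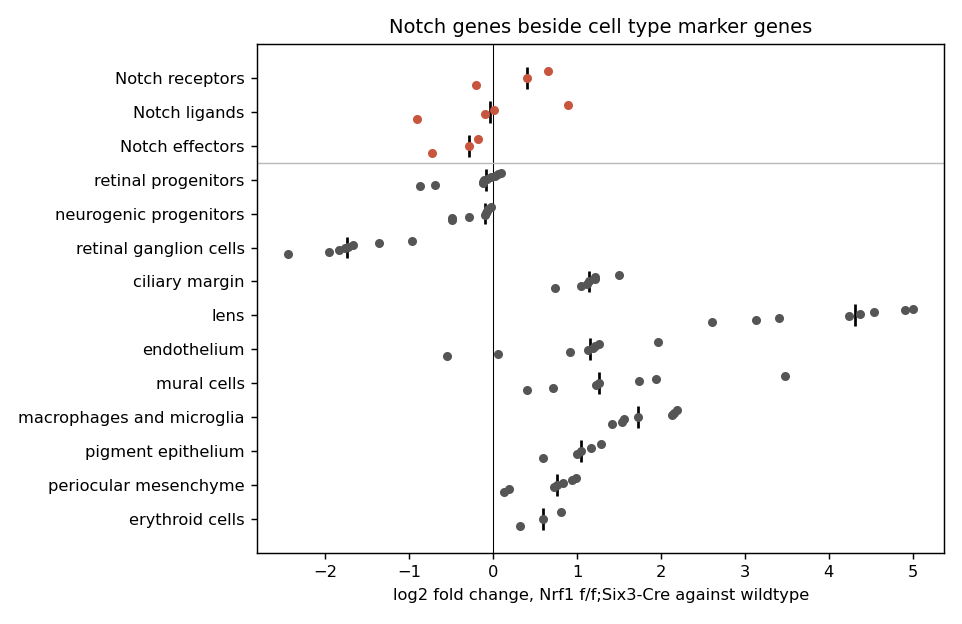
Log2 fold change of each tested gene (points) and the median (bar) for the 3 roles of the members (red) and for marker lists of 11 cell types and tissues (grey), Nrf1 f/f;Six3-Cre against wildtype retinas. The medians run from -1.75 for retinal ganglion cells to 4.31 for lens, and those of progenitors and of neurogenic progenitors are -0.087 and -0.095.

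Markers of cell types that express Notch genes moved in these libraries as well. Among 8 neurogenic progenitor genes, which Hes proteins repress or which mark the cells presenting ligands, Neurod4 (log2 fold change -0.50, adjusted p 0.0112) was called lower by edgeR's quasi-likelihood test, and Atoh7 (-0.29) and Neurog2 (-0.10) were not called. The summed level of that list was 694 and 765 CPM in wildtype and 645 and 667 CPM in mutant libraries. Of 10 progenitor markers, the signalling factor Fgf15 (-0.70) and the cyclin Ccnd1 (-0.88) were called lower.

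Beside the higher Jag1, all 7 ciliary margin genes were called higher, with a summed level of 164 and 173 CPM in wildtype and 324 and 375 CPM in mutant libraries. All 8 lens genes were higher too, and mutant replicate 1 held more lens RNA than replicate 2 (6284 against 2641 CPM) while Jag1 was at 121 and 111 CPM. Without mutant replicate 1 the log2 fold change of Jag1 was 0.84. The part of these tissues in the Jag1 value was not tested.

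Beside the higher Notch3, 6 of 7 mural cell genes were called higher, with a summed level of 48.1 and 41.5 CPM in wildtype and 106 and 114 CPM in mutant libraries. Rgs5, a defining mural marker, had 1.43 and 2.37 CPM in wildtype and 2.26 and 2.77 CPM in mutant libraries and was not called. Beside the higher Notch4, 6 of 8 endothelial genes were called higher, Cldn5 was not called, and Kdr, which retinal progenitors also express, was called lower. The summed level of the endothelial list was 270 and 273 CPM in wildtype and 290 and 282 CPM in mutant libraries. Leaving out Kdr, a choice made after its values were seen, it was 70.1 and 62.0 CPM in wildtype and 146 and 145 CPM in mutant libraries. The part of vessel cells in the Notch3 and Notch4 values was not tested.

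Other lists outside the neural retina moved the same way. All 7 macrophage and microglia genes were called higher (summed level of 67.6 and 60.4 CPM in wildtype and 201 and 240 CPM in mutant libraries). Of the tested pigment epithelium genes 4 of 5 were called higher, with summed levels of 205 and 144 against 374 and 395 CPM, and Rpe65 had at most 4 reads in any library. The periocular mesenchyme list had 5 of 7 called higher, with summed levels of 151 and 103 against 241 and 210 CPM. Of the erythroid genes, the globin genes Hbb-bt and Hba-a1 had 0 reads in every library, and 2 of the 3 tested were called higher. The summed level of that list lay between 7.89 CPM in wildtype replicate 1 and 14.6 CPM in mutant replicate 2, most of it from the heme synthesis gene Alas2 (6.89 and 9.37 against 11.6 and 12.9 CPM). Their part in the members' values was not tested.

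By GENCODE annotation of GRCm38, the 4 called members lie on separate chromosomes: Dll3 (chr7:28293553-28302238, minus strand), Hes5 (chr4:154960923-154962371, plus strand), Jag1 (chr2:137081456-137116644, minus strand) and Notch3 (chr17:32120820-32166852, minus strand). Some exons overlap other annotated genes. For Hes5, 31.8% of its exon bases are shared with Gm20421 on the opposite strand, for Dll1 20.6% with A930024N18Rik, and for Notch1, Notch2, Notch3 and Dll4 the largest single overlap is 7.50%. Whether counting used strand is not given in the sources used here, so reads from such partners cannot be told apart from the members' own. Dll3, Jag1, Hes1 and Hey1 share no exon with another annotated gene.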

How the data were processed

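Libraries were made from pooled E13.5 retinas and sequenced as paired ends. Per the labels and the study's methods, the authors aligned reads with TopHat2 to mm10 (GRCm38) and counted them per gene with HTSeq. They deposited raw counts and a second table of normalised log2 values, whose method is not given in the sources used here. The labels also name the tools DESeq and limma, whereas the study's methods name Cuffdiff for differential expression. Rows that name no gene (ambiguous, not unique and the like) made up 74.0% to 75.0% of all entries and were left out. Counts were filtered with filterByExpr, scaled by TMM and tested with edgeR 4.0.16 (quasi-likelihood, Benjamini-Hochberg adjustment over 15762 genes) in R 4.3.3, without a replicate term. The thresholds (1.4-fold, adjusted p of at most 0.2) are those of the study, whose Cuffdiff test needs aligned reads. CPM used TMM-scaled library sizes, and exon length was the union of GENCODE exons. Scripts were tested on simulated data. The members and all lists were chosen with earlier results of these data known. Every member, every called gene of the wider list and genes of the same steps were named. Alternatives included DESeq2 1.42.0, limma 3.58.1 on the deposited log2 values, other scalings and filters, and leaving out each library. The same-numbered libraries shared only a number. Some genes of the lists are not reported here.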

Additional observations from a re-analysis of the deposited data

How the results depend on the processing

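Of the 10 members, 7 kept their direction and stayed called or not called under all 16 alternatives. Among the members not called, Notch1, Hes1 and Hey1 had adjusted p-values on both sides of the 0.2 limit, and so did Notch2, which passed above it with glmTreat only. Hes5 fell under the fold minimum without wildtype replicate 2, so that 1 to 2 members were called lower over the 4 fits that left out 1 library. Where a group was left with 1 library, that library was assumed to vary like the others. Notch2 was called once the minimum fold was dropped at an adjusted p of 0.05. Dll4 turned below 0 with scaling by library size only (-0.0039) and in 2 of the fits without a library, whose log2 fold changes ran from -0.13 to 0.18, and it was not called in any of the 16. In the wider list, the number called lower was 1 with upper-quartile scaling, 1 with glmTreat, 8 with an adjusted p of at most 0.05 and no minimum fold, and 2 to 4 with a library left out. The number called higher was 1 with glmTreat, 1 with limma on the deposited values and 1 to 4 with a library left out. Dlk1 lost its call in 6 alternatives, Furin in 5 and Dtx4 in 2. Over all genes, glmTreat called 743 lower and 1188 higher, and limma on the deposited values 722 and 941. With the replicate number as a block (replicate block), the members again gave 2 lower and 2 higher, and all genes 1256 and 1970. Deviations of same-numbered libraries had a correlation of -0.016 over 13431 genes. The alternative with a pseudocount was not run, as the deposited values were already log2.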

Other observations

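Of the 4 ubiquitin ligases that let a ligand-bearing cell pull on the receptor, Mib1 was at 172 CPM (mean of 2) in wildtype retinas and 161 CPM in mutant ones (Nrf1 f/f;Six3-Cre), a log2 fold change of -0.10 ± 0.093, and Mib2 had one of 0.32 ± 0.12, and neither was called. Neurl1a and Neurl1b had log2 fold changes of 0.10 and -0.039, with overlapping libraries.

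Among corepressors, Tle1, a Groucho protein recruited by Hes factors, was at 231 CPM in wildtype and 168 CPM in mutant retinas, a log2 fold change of -0.46 ± 0.088 with an adjusted p of 0.00607 in edgeR's quasi-likelihood test and a fold just under the minimum. Its relatives Tle3 and Tle4 had log2 fold changes of 0.12 and -0.12. Among genes that restrain or remove the receptor, Numbl (log2 fold change -0.34 ± 0.087, adjusted p 0.0213), Fbxw7 (-0.27 ± 0.074, adjusted p 0.0309) and Itch (-0.19 ± 0.092, adjusted p 0.183) missed a call by edgeR's quasi-likelihood test on fold alone, and Numb (0.028 ± 0.079) was not called either.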
